A study of Schizosaccharomyces pombe with 12 samples.

Results

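This is an account of 19 protein-coding genes of the fission yeast Schizosaccharomyces pombe whose polyadenylated RNA was lower than in wild type in ssu72-C13S and higher in asp1-H397A. They were chosen from a table of 6986 genes, of which 4825 had identifiers not beginning SPNCRNA and a mean of at least 5 CPM (counts-per-million) in some genotype. A gene was taken when log2((mutant mean + 0.5)/(WT mean + 0.5)), on CPM by library total, was −0.5 or less in ssu72-C13S and 0.5 or more in asp1-H397A. Of the 4825 genes 23 met these limits, and pho1 (SPBP4G3.02), pho84 (SPBC8E4.01c), tgp1 (SPBC1271.09) and ecl3 (SPBC8E4.12c) were then left out. The question was which single mutant the 19 genes resemble in the strain that carries both alleles.

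All strains grew vegetatively in YES (rich medium) at 30 °C and were in log phase, and each of the 4 genotypes had 3 libraries. WT carried none of the mutations. The strain ssu72-C13S has a changed residue in Ssu72, and asp1-H397A has a changed residue in Asp1. The triple mutant, asp1-H397A ssu72-C13S aps1∆, has both alleles and, by its label, a deletion of aps1. No strain analysed here lacks aps1 alone or has both alleles with aps1 intact, so in the triple mutant any effect of the aps1 deletion cannot be told apart from that of joining the alleles. The series text speaks of replicate experiments and not of separate cultures, so p-values measure the spread between these libraries.

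Ssu72 is a protein phosphatase of the cleavage and polyadenylation factor, the complex that cuts and polyadenylates nascent RNA, and it removes phosphates from the tail of RNA polymerase II. Asp1 has a kinase domain that makes inositol pyrophosphates, signalling molecules used in phosphate homeostasis, and a pyrophosphatase domain that breaks them down, in which H397A lies. Aps1 is another enzyme that breaks down inositol pyrophosphates. Phosphate acquisition genes such as pho1 are kept low in phosphate-rich medium by transcription of non-coding RNAs upstream of them, so that termination of those RNAs bears on their level.

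Library totals ran from 23115806 to 29124916 counts, at which 3 counts, the most that a count of 0 allows, equal 0.103 to 0.130 CPM (counting error only). As a check of the labels, aps1 averaged 112 ± 9.20 CPM (SD, n = 3) over the WT libraries against 38.9 ± 2.08 CPM over those of the triple mutant, so it was lower there but not at 0. With 895, 958 and 758 counts of aps1 in the triple mutant libraries, the deletion rests on the label and is not settled by counts per gene. Of all libraries, asp1-H397A replicate 3 and triple mutant replicate 1 lay farthest from the others of their genotype, with median distances of 0.239 and 0.198 on the log2 scale against 0.0430 to 0.142 for the rest. In asp1-H397A, replicate 3 was the lowest library for 15 of the 19 genes. In the triple mutant, replicate 1 was the lowest for 12. Counts of calls are therefore also given without this pair of libraries.

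The values that chose the genes are a description. By the limits above, the log2 value in ssu72-C13S ran from −2.63 for SPBCPT2R1.04c to −0.63 for new25, and that in asp1-H397A from 0.53 for ymc1 to 2.24 for isp4. Just inside the ssu72-C13S limit were new25 (−0.63) and bpb1 (−0.64), and just outside it dad5 (−0.46) and mfs2 (−0.44). Just inside the asp1-H397A limit were ymc1 and rps001 (both 0.53), and just outside it the ribosomal RNA gene SPRRNA.02 (0.497) and SPBC1711.15c (0.494). In the model across all genes, 19 of 19 were called lower in ssu72-C13S and 0 higher, where 29.1% and 25.5% of genes tested were. In asp1-H397A 19 of 19 were higher and 0 lower, where 25.8% and 18.6% were. Nothing is read from these counts, because the rule used the same contrasts. From here on, levels are CPM scaled by TMM (trimmed mean of M values), as in the tests. On that scale 53 genes met the limits, the 19 among them; TMM in place of library totals raises the median gene by log2 0.22 in asp1-H397A against WT, and by 0.31 in the triple mutant.

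In the triple mutant the 19 genes divided, with no single mutant resembled by all of them. Of the 19, 8 were higher than in asp1-H397A, 3 could not be told apart from it, 6 lay between the single mutants, and 2 were at or below ssu72-C13S. The 11 genes (57.9%) above asp1-H397A or not told apart from it compare with 78.9% of all genes tested. Against WT, 14 of the 19 were higher in the triple mutant, where 26.2% of all genes tested were called higher, and 2 were lower, where 25.7% were. Against ssu72-C13S, 17 were higher (28.8% of all genes) and 1 was lower (27.5%). Against asp1-H397A, 8 were higher (15.7% of all genes) and 8 lower (21.1%). The median log2 fold change of the 19 was 0.94 against WT, 1.77 against ssu72-C13S and 0.04 against asp1-H397A, and over all genes tested it was −0.01, 0.01 and −0.01. In RNA from whole cultures, a change in some cells and a change in all cells cannot be told apart. Departure from additivity is the log2 value of the triple mutant minus those of both single mutants plus WT; it was positive past the threshold for 13 of the 19 (20.1% of all genes) and negative for 3 (21.8%).

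Scaling moved both the shares over all genes and the counts of the 19. By library totals, 10.8% of all genes were higher and 53.2% lower than WT, 10.7% and 28.8% against asp1-H397A, and 12.9% and 47.4% against ssu72-C13S; of the 19, 11 and 4, 7 and 8, and 16 and 2 were. By upper-quartile scaling the shares were 21.0% and 31.0%, 22.0% and 15.6%, and 22.7% and 34.0%, and of the 19, 13 and 2, 9 and 8, and 17 and 2 were higher and lower.

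The triple mutant was not used in the choice other than through the minimum level. Its libraries are compared with those that chose the genes, however, so that chance in the choice favours lower values against asp1-H397A and higher values against ssu72-C13S.

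Without asp1-H397A replicate 3 and triple mutant replicate 1, the counts were 14 higher and 2 lower against WT, where 32.9% and 37.3% of all genes were. They were 17 and 1 against ssu72-C13S (33.8% and 36.3%), and 9 and 8 against asp1-H397A (26.6% and 26.9%). The 8 genes above asp1-H397A were the least secure count. It fell to 3 (tef101, cao2 and ymc1) when only these genotypes were fitted, where 8.46% of all genes were higher, and also to 3 without triple mutant replicate 2, where 13.3% were. A count of 3 of 19 is near the share of 13.3% and above that of 8.46%, and was not tested against either.

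**Figure D1:**
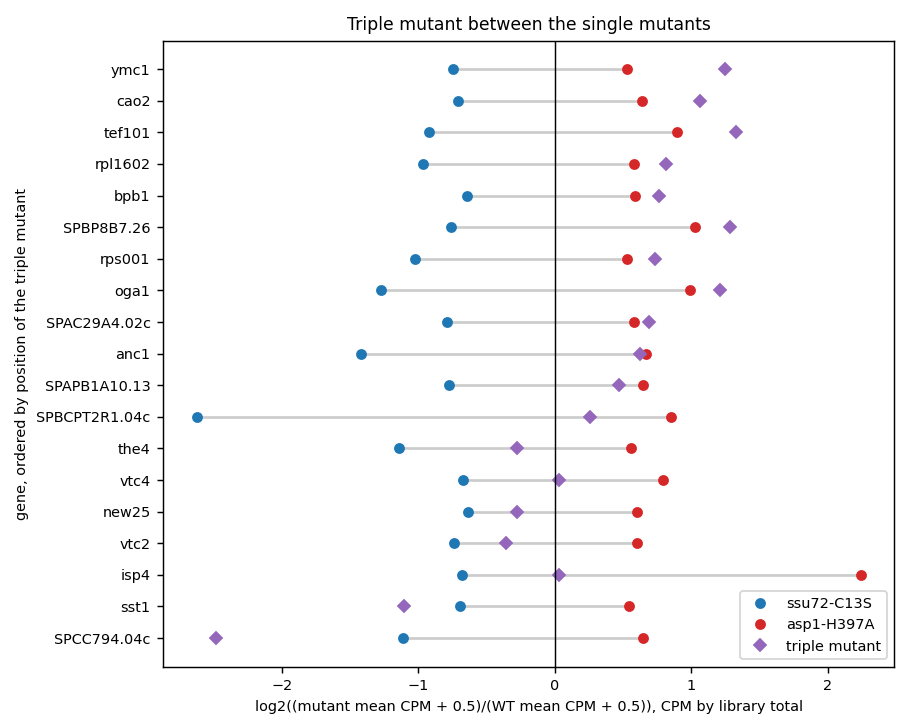
Mean level of each of the 19 genes in ssu72-C13S, asp1-H397A (circles) and the triple mutant (diamonds) relative to WT, as log2 of CPM by library total with 0.5 added; the grey line joins the single mutants and genes are ordered by the place of the triple mutant on it. The diamonds lie beyond asp1-H397A for 9 genes from SPAC29A4.02c to ymc1, and beyond ssu72-C13S for sst1 and SPCC794.04c.

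The place of the triple mutant was also expressed as a position on the log2 scale of library-total CPM, with 0 at the ssu72-C13S level and 1 at the asp1-H397A level. It was above 1 for 9 genes, between 0.5 and 1 for 4, between 0 and 0.5 for 4 and below 0 for 2. The ends of this scale are the values that chose the genes, and WT itself was past the midpoint, nearer to asp1-H397A, for 16 of the 19. The triple mutant was past it for 13, which therefore says nothing of which allele it resembles. The extremes were ymc1 at 1.56 and SPCC794.04c at −0.78.

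**Figure D2:**
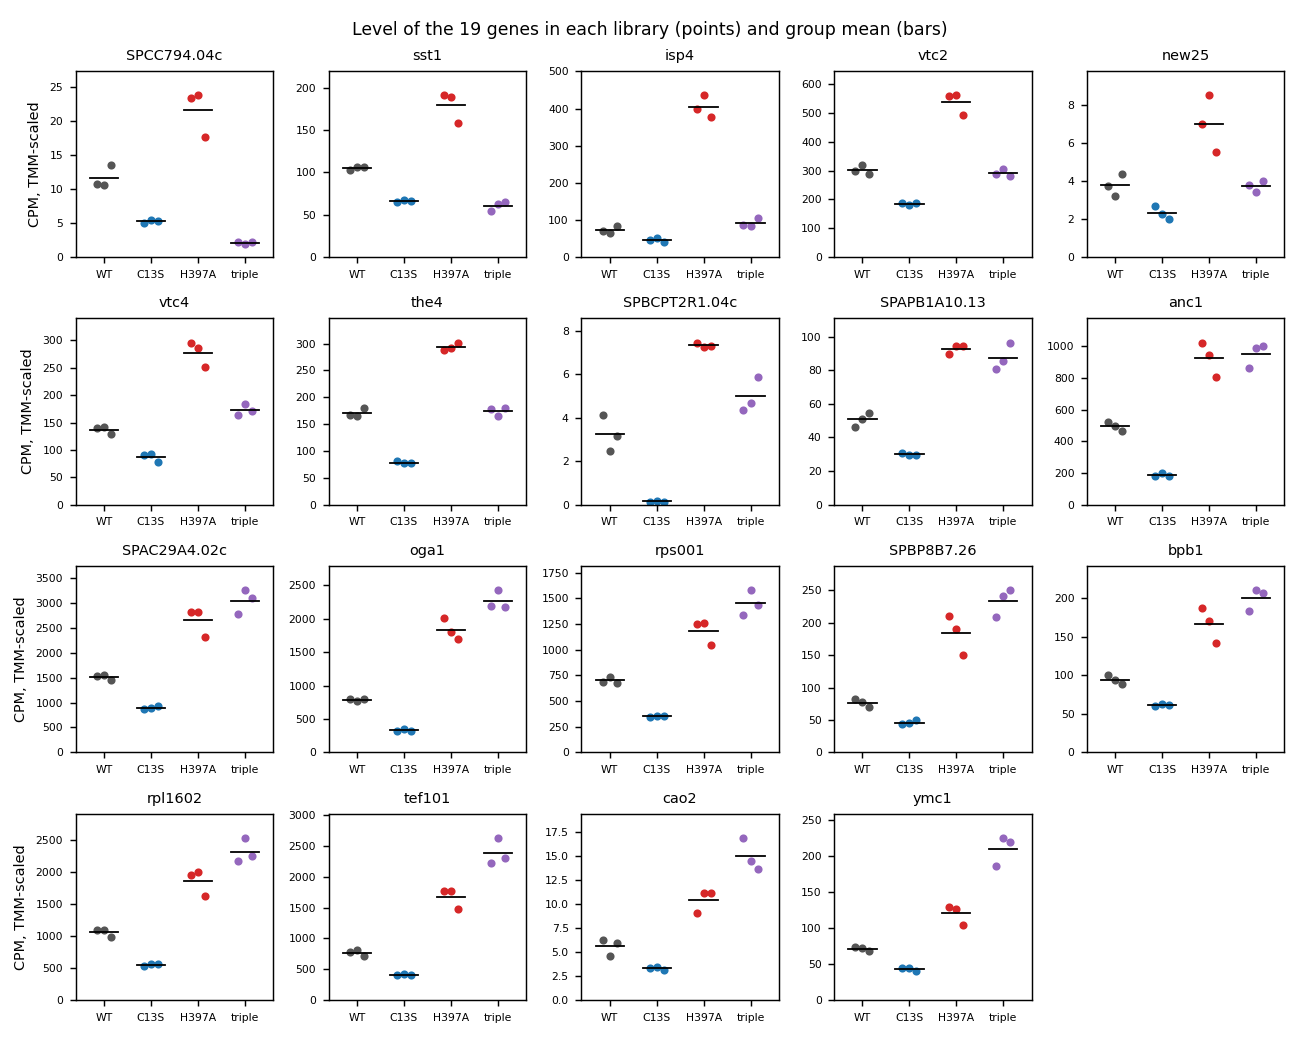
Level of each of the 19 genes in TMM-scaled CPM (linear axes from 0) in the 3 libraries of each genotype, with the group mean as a bar; panels run from the lowest to the highest position of the triple mutant. The first 2 panels have their lowest points in the triple mutant, and the last 10, from anc1 on, have their highest group mean there.

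Of the 19 genes, 5 were grouped by hand under translation from their annotation. In the triple mutant 4 of them were called above asp1-H397A, of which tef101 alone kept the call when only these genotypes were fitted and without triple mutant replicate 2. The gene tef101 (SPCC794.09c) encodes elongation factor EF-1 alpha, which delivers aminoacyl-tRNA to the ribosome. It stood at 782, 803 and 711 CPM in WT replicates 1 to 3 and at 401, 421 and 411 in ssu72-C13S. In asp1-H397A it was at 1768, 1761 and 1473 CPM, and in the triple mutant at 2221, 2628 and 2305. The genotypes did not overlap, and every triple mutant library was above every other library. For tef101, as for all of the 19, the choice favours separation of WT from both single mutants. Only the place of the triple mutant is read from these ranges. The triple mutant differed from WT by log2 1.64 (SE 0.0898, adjusted p 8.32e-09) and from asp1-H397A by log2 0.52 (SE 0.0877, adjusted p 5.15e-04).

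SPAC29A4.02c, annotated as the gamma subunit of EF-1, the complex that recharges EF-1 alpha with GTP, was at 1530.4, 1555 and 1458 CPM in WT and 865, 889.5 and 922 in ssu72-C13S. Its asp1-H397A libraries were at 2825, 2813 and 2318 CPM and its triple mutant libraries at 2773, 3252 and 3102. The latter groups overlapped. It was higher in the triple mutant than in WT, by log2 1.01 (SE 0.0880, adjusted p 6.54e-07), while its difference from asp1-H397A did not pass the threshold, at log2 0.20 (SE 0.0871, adjusted p 0.0915). That difference passed the threshold under upper-quartile scaling, without triple mutant replicate 1, and without that library and asp1-H397A replicate 3.

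Ribosomal protein genes that exist in several copies made up a further pair. The gene rps001 (SPBC685.06) encodes uS2 of the small ribosomal subunit. Its level was 689.6, 738 and 674 CPM in WT, 341, 358 and 354 in ssu72-C13S, 1245, 1262 and 1044 in asp1-H397A and 1335, 1578 and 1437 in the triple mutant. The rpl1602 gene (SPAC23A1.11) encodes uL13 of the large subunit and was at 1097, 1088 and 993 CPM in WT, 532, 558 and 569 in ssu72-C13S, 1956, 2003 and 1626 in asp1-H397A and 2171, 2535 and 2245 in the triple mutant. For both genes every triple mutant library was above every asp1-H397A library, by a small margin. The triple mutant was higher than WT by log2 1.049 (SE 0.0842, adjusted p 2.83e-07) for rps001 and by log2 1.13 (SE 0.0896, adjusted p 2.59e-07) for rpl1602. Against asp1-H397A the values were log2 0.29 (SE 0.0833, adjusted p 0.0141) and log2 0.32 (SE 0.0886, adjusted p 0.0131), and neither passed the threshold when only these genotypes were fitted or without triple mutant replicate 2.

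The oga1 gene (SPBC16A3.08c), annotated as protein stm1, was at 800.4, 769 and 799 CPM in WT and 325, 347 and 327 in ssu72-C13S; in budding yeast Stm1 binds ribosomes. It reached 2007, 1808 and 1691 CPM in asp1-H397A and 2197, 2427 and 2178 in the triple mutant, again with no overlap between genotypes. The rise over WT was log2 1.52 (SE 0.0763, adjusted p 3.60e-09) and that over ssu72-C13S log2 2.77 (SE 0.0798, adjusted p 1.33e-11). The smaller excess over asp1-H397A was log2 0.30 (SE 0.0746, adjusted p 0.00612), and it was lost in the same pair of alternatives as those of rps001 and rpl1602.

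The genes encoding mitochondrial carriers, anc1 and ymc1, differed in the triple mutant. The anc1 gene (SPBC530.10c) encodes the antiporter that exchanges ATP for ADP across the inner membrane. It was at 524, 500.3 and 466 CPM in WT, 181, 201 and 184 in ssu72-C13S, 1024, 947 and 804 in asp1-H397A and 864, 991 and 1005 in the triple mutant. All libraries with both alleles and aps1∆ lay within the asp1-H397A range, and their difference was log2 0.04 (SE 0.0910, adjusted p 0.742), negative under library totals and without asp1-H397A replicate 3. Against WT the triple mutant was higher, by log2 0.94 (SE 0.0919, adjusted p 1.86e-06). The transporter gene ymc1 (SPAC4G9.20c), whose budding yeast namesake is a carrier of the mitochondrial inner membrane, was at 73.7, 71.9 and 68.2 CPM in WT and 44.7, 44.7 and 40.1 in ssu72-C13S. In asp1-H397A it was at 129.95, 127 and 105 CPM, and in the triple mutant at 187, 225 and 220.0. No groups overlapped, and of the 19 genes ymc1 had the largest excess over asp1-H397A, log2 0.81 (SE 0.0903, adjusted p 1.71e-05), and against WT it was log2 1.56 (SE 0.0922, adjusted p 1.61e-08).

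Other genes that exceeded asp1-H397A were bpb1, cao2 and SPBP8B7.26. The splicing factor gene bpb1 (SPCC962.06c), whose product binds the branch point of introns, was at 101, 94.0 and 88.9 CPM in WT, 60.3, 63.4 and 61.3 in ssu72-C13S, 188, 171 and 142 in asp1-H397A and 183, 211 and 207 in the triple mutant. One asp1-H397A library, replicate 1, was above the lowest triple mutant library. The difference from asp1-H397A, log2 0.26 (SE 0.0904, adjusted p 0.0349), was the smallest that passed. It was lost on leaving out asp1-H397A replicate 2 or 3 or triple mutant replicate 2 or 3, under library totals, and when only these genotypes were fitted; without asp1-H397A replicate 3 it was log2 0.16. Against WT bpb1 was higher by log2 1.08 (SE 0.0917, adjusted p 4.83e-07).

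The cao2 gene (SPBC1289.16c), annotated as copper amine oxidase-like, had low levels, from 6.31, 4.57 and 5.90 CPM in WT and 3.29, 3.48 and 3.17 in ssu72-C13S to 9.10, 11.1 and 11.1 in asp1-H397A and 16.9, 14.6 and 13.6 in the triple mutant. All triple mutant libraries were above the rest, with log2 1.42 (SE 0.136, adjusted p 1.47e-06) against WT and log2 0.53 (SE 0.131, adjusted p 0.00676) against asp1-H397A. For SPBP8B7.26, which has no annotated role, the levels were 82.0, 77.4 and 70.6 CPM in WT, 43.7, 44.9 and 49.3 in ssu72-C13S, 211, 191 and 151 in asp1-H397A and 209, 241 and 250.0 in the triple mutant. Its asp1-H397A and triple mutant ranges overlapped slightly. The triple mutant was higher than WT by log2 1.60 (SE 0.111, adjusted p 7.52e-08) and than asp1-H397A by log2 0.34 (SE 0.108, adjusted p 0.0234), the latter not without triple mutant replicate 2 or 3, nor when only these genotypes were fitted. SPAPB1A10.13, also without an annotated role, was at 46.4, 51.1 and 54.8 CPM in WT, 30.9, 29.7 and 29.6 in ssu72-C13S, 89.5, 94.2 and 94.5 in asp1-H397A and 80.5, 85.5 and 96.4 in the triple mutant. The latter groups overlapped, and it was higher than WT by log2 0.79 (SE 0.0810, adjusted p 3.02e-06), and its difference from asp1-H397A did not pass, at log2 −0.08 (SE 0.0800, adjusted p 0.442).

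The polyphosphate genes were below their asp1-H397A level in the triple mutant. The genes vtc2 (SPAC14C4.11) and vtc4 (SPCC1322.14c) encode subunits of the vacuolar transporter chaperone complex, which makes polyphosphate, the cell's phosphate store, and moves it into the vacuole. The level of vtc2 was 299, 319 and 288 CPM in WT, 187, 181 and 186 in ssu72-C13S, 558, 562 and 494 in asp1-H397A and 289, 306 and 283 in the triple mutant. Its triple mutant libraries overlapped WT and lay below all asp1-H397A and above all ssu72-C13S libraries. The difference from WT did not pass the threshold, at log2 −0.04 (SE 0.0644, adjusted p 0.586), whereas those from asp1-H397A, log2 −0.88 (SE 0.0648, adjusted p 3.60e-07), and from ssu72-C13S, log2 0.66 (SE 0.0649, adjusted p 1.38e-06), did. Under library totals vtc2 was below WT, by log2 −0.36.

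The level of vtc4 was 139.6, 142 and 129 CPM in WT, 90.9, 93.0 and 78.1 in ssu72-C13S, 296, 286 and 251 in asp1-H397A and 164, 185 and 171 in the triple mutant. No groups overlapped, and the last lay between WT and asp1-H397A. It was higher than WT by log2 0.34 (SE 0.0813, adjusted p 0.00323), a call lost under library totals (log2 0.03), and lower than asp1-H397A by log2 −0.68 (SE 0.0812, adjusted p 2.97e-05).

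The transporter genes isp4, sst1 and SPCC794.04c had the lowest places of the triple mutant relative to asp1-H397A. The isp4 gene (SPBC29B5.02c) encodes an oligopeptide transporter of the plasma membrane. It was at 70.5, 64.4 and 82.6 CPM in WT, 45.2, 50.8 and 42.0 in ssu72-C13S, 399.7, 437 and 376 in asp1-H397A and 87.4, 82.7 and 106 in the triple mutant. All of the last were above those of WT, by a small margin. The high level of asp1-H397A was absent from every triple mutant library, with log2 −2.14 (SE 0.111, adjusted p 1.30e-08) between them. Against ssu72-C13S the triple mutant was higher, by log2 1.00 (SE 0.111, adjusted p 4.74e-06). Its excess over WT, log2 0.34 (SE 0.109, adjusted p 0.0178), was lost without WT replicate 1 or 2 or triple mutant replicate 3, under upper-quartile scaling and under library totals (log2 0.03).

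For sst1 (SPAC521.04c), annotated as a calcium permease, the levels were 102, 106 and 107 CPM in WT, 64.9, 67.2 and 66.4 in ssu72-C13S, 192, 189 and 159 in asp1-H397A and 54.3, 62.3 and 64.8 in the triple mutant. Every triple mutant library was below every ssu72-C13S library, by a small margin. The triple mutant was below WT, by log2 −0.80 (SE 0.0806, adjusted p 2.55e-06), and far below asp1-H397A, by log2 −1.57 (SE 0.0814, adjusted p 1.30e-08). It did not differ from ssu72-C13S past the threshold, at log2 −0.13 (SE 0.0809, adjusted p 0.187); it was lower than ssu72-C13S under upper-quartile scaling and library totals. SPCC794.04c, annotated as a transporter, was at 10.7, 10.7 and 13.6 CPM in WT, 5.08, 5.44 and 5.26 in ssu72-C13S, 23.4, 23.9 and 17.6 in asp1-H397A and 2.20, 1.89 and 2.27 in the triple mutant. Its triple mutant libraries were the lowest of all, and it was the only one of the 19 called lower than in ssu72-C13S, with log2 −1.31 (SE 0.169, adjusted p 1.83e-05). Against WT the fall was log2 −2.45 (SE 0.161, adjusted p 4.64e-08) and against asp1-H397A log2 −3.35 (SE 0.159, adjusted p 5.28e-09).

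The remaining genes lay between the single mutants. The acyl-coenzyme A thioesterase gene the4 (SPBC26H8.11c), whose product splits fatty acids from coenzyme A, was at 166, 165 and 181 CPM in WT, 81.3, 77.1 and 77.6 in ssu72-C13S, 288, 292 and 302 in asp1-H397A and 178, 164 and 179 in the triple mutant. Its triple mutant and WT libraries overlapped, at log2 0.03 (SE 0.0570, adjusted p 0.712), and under library totals it was below WT, by log2 −0.28. It was lower than asp1-H397A by log2 −0.76 (SE 0.0571, adjusted p 4.50e-07). The small gene new25 (SPCC330.21), of no annotated role, was at 3.75, 3.20 and 4.35 CPM in WT, 2.68, 2.25 and 2.02 in ssu72-C13S, 6.98, 8.52 and 5.52 in asp1-H397A and 3.80, 3.44 and 4.01 in the triple mutant. Its triple mutant libraries lay within the WT range, at log2 −0.0048 (SE 0.179, adjusted p 0.985), and below asp1-H397A by log2 −0.90 (SE 0.172, adjusted p 0.00124). By library totals only its asp1-H397A mean, 6.56 CPM, reached the minimum of the rule, so nothing is read from the latter call.

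SPBCPT2R1.04c belongs to a family of related S. pombe genes whose annotated role is unknown, so its counts are uncertain where reads are shared with relatives. It held 4, 5 and 4 counts in the ssu72-C13S libraries, which is 0.137, 0.181 and 0.144 CPM and close to the limit of a count of 0. In WT it was at 4.15, 2.46 and 3.18 CPM, in asp1-H397A at 7.45, 7.259 and 7.31 and in the triple mutant at 4.35, 4.69 and 5.88. No groups overlapped. The triple mutant was above WT by log2 0.59 (SE 0.172, adjusted p 0.0106), a call lost under library totals and without triple mutant replicate 3. It was below asp1-H397A by log2 −0.57 (SE 0.163, adjusted p 0.0153), a call lost without triple mutant replicate 1 or 2. As for new25, only the asp1-H397A mean, 6.93 CPM by library totals, reached the minimum of the rule, so nothing is read from this call.

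**Figure D3:**
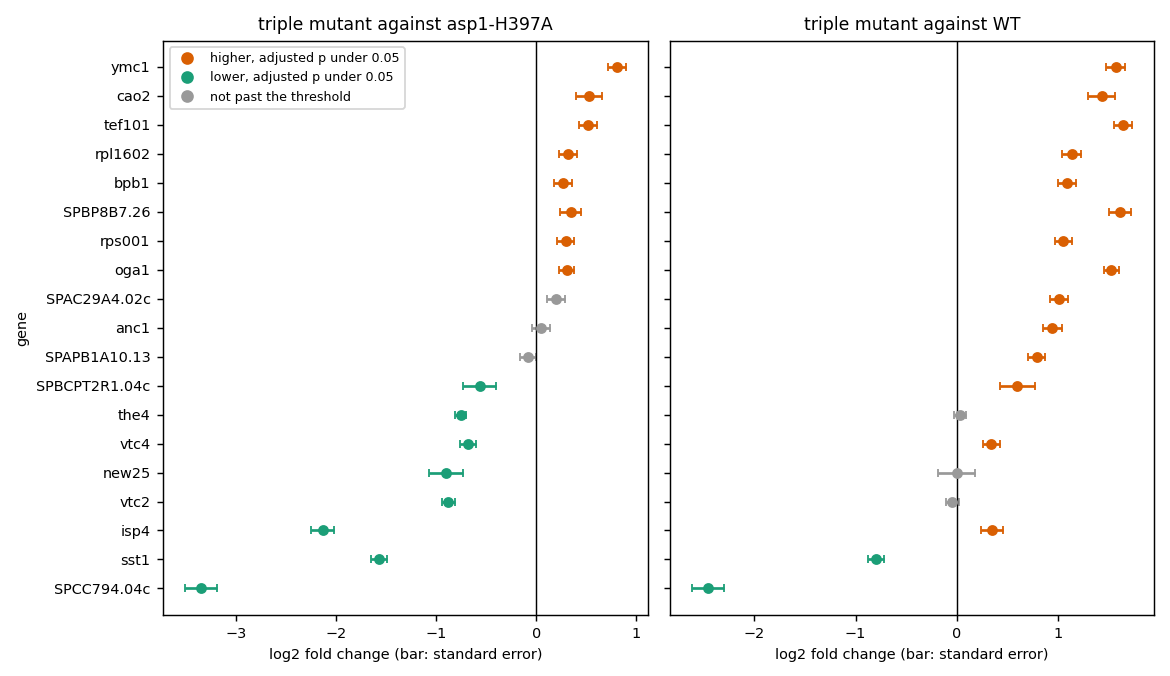
Log2 fold change of the triple mutant against asp1-H397A (left) and against WT (right) for the 19 genes, with standard errors from edgeR's quasi-likelihood model; colours give the call at an adjusted p of 0.05. On the left 8 genes are higher, 8 lower and 3 not past the threshold; on the right 14 are higher, 2 lower and 3 not past it.

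Whether paralogues and complex partners of these genes moved alike was examined with 8 genes chosen after the values of the 19 were known. Calls for these 8 were not examined under the alternative settings used for the 19. EF-1 alpha has further copies, tef102 (SPAC23A1.10) and tef103 (SPBC839.15c), which are close in sequence to tef101, so reads could be split among the copies. For tef102 the WT mean was 409 ± 16.0 CPM (SD, n = 3), the ssu72-C13S mean 315 ± 14.4, the asp1-H397A mean 879 ± 84.7 and the triple mutant mean 1299.6 ± 109. The corresponding levels of tef103 were 1345 ± 38.4 CPM, 825 ± 29.03, 2194 ± 207 and 2990.4 ± 275. Both copies had the order of tef101 and exceeded asp1-H397A in the triple mutant, by log2 0.56 (SE 0.0818, adjusted p 1.52e-04) and log2 0.45 (SE 0.0848, adjusted p 0.00117). The beta subunit gene tef5 (SPCC1450.04) did not have the pattern: the WT mean was 2494 ± 116 CPM (SD, n = 3), the ssu72-C13S mean 2269 ± 18.5, the asp1-H397A mean 2452 ± 248 and the triple mutant mean 3350.3 ± 365. It was higher in the triple mutant than in asp1-H397A, by log2 0.45 (SE 0.0925, adjusted p 0.00198). Neither single mutant passed the threshold against WT for this gene.

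A further subunit gene of the polyphosphate complex, nrf1 (SPBC21B10.04c), was at 269, 305 and 287 CPM in WT, 164, 162 and 155 in ssu72-C13S, 456, 471 and 399.5 in asp1-H397A and 231, 292 and 277 in the triple mutant. Like vtc2 it overlapped WT in the triple mutant, with log2 −0.11 (SE 0.0874, adjusted p 0.335), and was lower than in asp1-H397A, by log2 −0.73 (SE 0.0877, adjusted p 3.17e-05). It met the limits of the rule on TMM-scaled CPM and not by library totals.

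The other copy of rps001, rps002 (SPAPJ698.02c), had a WT mean of 2602 ± 43.3 CPM (SD, n = 3), a ssu72-C13S mean of 2221 ± 27.1, an asp1-H397A mean of 3108 ± 299.7 and a triple mutant mean of 3683 ± 376. Its log2 values against WT were −0.23 in ssu72-C13S and 0.26 in asp1-H397A, against −0.997 and 0.76 for rps001. Among the other uL13 genes, rpl1601 (SPBC839.13c) had the order of rpl1602, with 0.77 in log2 against WT in the triple mutant (adjusted p 5.09e-06). The third copy, rpl1603 (SPBC2G2.05), was lower than WT there, with −0.56 (adjusted p 3.29e-05). The copper amine oxidase gene cao1 (SPAC2E1P3.04) was higher than WT in both single mutants and in the triple mutant, where the difference was log2 0.90 (SE 0.0728, adjusted p 2.97e-07). Of 131 genes with rpl or rps symbols, 18 were called both lower in ssu72-C13S and higher in asp1-H397A, against 336 of 6189 genes tested. Only rps001 and rpl1602 of the 131 met the rule by library totals. On TMM-scaled CPM rps2 and rps1002 also met its limits. Against WT in the triple mutant 50 of the 131 were higher (26.2% of all genes were) and 11 lower (25.7%), with a median log2 of 0.14. Against asp1-H397A 30 were higher (15.7% of all genes) and 1 lower (21.1%), with a median of 0.13.

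**Figure D4:**
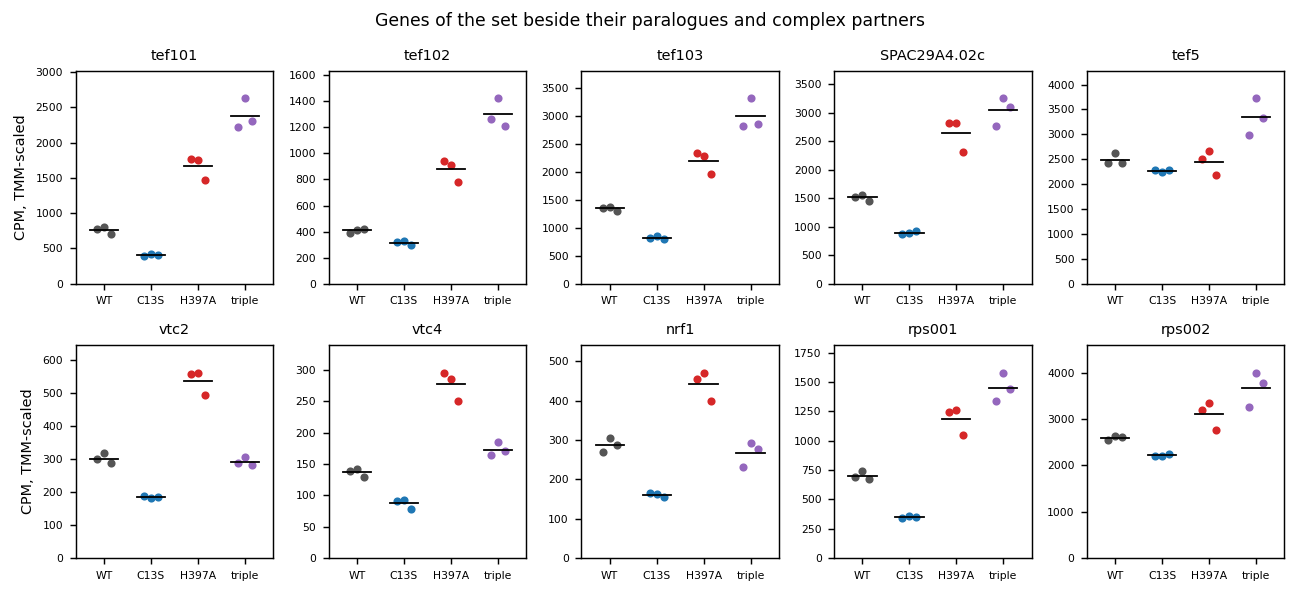
TMM-scaled CPM per library (points; bars are group means; linear axes from 0) for genes of the set beside relatives and partners: EF-1 alpha copies tef101, tef102 and tef103, EF-1 gamma SPAC29A4.02c and EF-1 beta tef5, polyphosphate complex genes vtc2, vtc4 and nrf1, and the uS2 copies rps001 and rps002. The EF-1 alpha copies are highest in the triple mutant, and the polyphosphate genes are highest in asp1-H397A.

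The genes left out by the rule were set beside the 19. In the triple mutant pho1, pho84, tgp1 and ecl3 exceeded asp1-H397A, by log2 0.83, 0.33, 0.96 and 1.06 (adjusted p 7.22e-05, 0.0155, 1.28e-06 and 4.89e-05). They thus had the order of the 8 genes above asp1-H397A and not that of the polyphosphate genes. Calls for these left-out genes were not examined under the alternative settings used for the 19. A list of 7 phosphate genes, drawn up with earlier results known, also held pho7, csk1 and pho4 (an acid phosphatase gene repressed by thiamine). Of these 7, 6 were higher than WT in the triple mutant and 0 lower. The kinase gene csk1 did not pass, at log2 −0.25 (SE 0.117, adjusted p 0.0903). Of 6 genes of inositol pyrophosphate metabolism, asp1, siw14 and ipk1 were higher than WT in the triple mutant, aps1 was lower, and kcs1 and arg82 did not pass. Of 13 genes listed by symbol for the cleavage and polyadenylation factor, ssu72 and swd22 were higher and pta1, pfs2, cft2, dis2 and mpe1 lower. The listed pap1 (SPAC1783.07c) was higher too, but in S. pombe that symbol names a transcription factor and not a subunit of the complex. Over all genes tested, 26.2% were higher and 25.7% lower than WT in the triple mutant. The lists were not tested against these shares.

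The neighbourhood of the 19 genes was compared with that of the 4989 coding genes tested, among genes that are in the table. The gene immediately upstream was on the same strand for 6 of 19 (31.6%) against 48.0% of all. For rpl1602 it is tef102, given above as a copy of EF-1 alpha. Against WT, tef102 was lower in ssu72-C13S (log2 −0.38) and higher in asp1-H397A (log2 1.10), and a link between these neighbours was not tested. The upstream gene was on the same strand and non-coding or a pseudogene for 2 of 19 (10.5%) against 10.7%. For ymc1 this neighbour is SPNCRNA.810, a long non-coding RNA gene, which was at 7.258, 7.28 and 9.62 CPM in WT, 10.4, 10.2 and 12.7 in ssu72-C13S, 3.73, 3.61 and 4.88 in asp1-H397A and 7.86, 7.32 and 7.27 in the triple mutant. Its order in the single mutants was the reverse of that of ymc1: it was higher than WT in ssu72-C13S, by log2 0.46 (SE 0.142, adjusted p 0.0137), and lower in asp1-H397A, by log2 −0.98 (SE 0.155, adjusted p 2.28e-04). In the triple mutant, where ymc1 was highest, SPNCRNA.810 overlapped WT, at log2 −0.10 (SE 0.147, adjusted p 0.591). The neighbour of SPBCPT2R1.04c, the pseudogene SPBCPT2R1.05c, had 0 counts in all libraries. An annotated gene overlapped 3 of the 19 on the same strand (SPAC29A4.02c, SPAPB1A10.13 and anc1; 15.8% against 10.3% of all) and 9 on the opposite strand (47.4% against 53.2%), so reads of those genes may have been shared with the overlapping gene.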

How the data were processed

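The authors deposited raw counts per gene for 12 libraries of poly(A)+ RNA made with a stranded kit, per the labels' protocols. HISAT2 2.1.0, SAMtools, HTSeq 0.10.0, DESeq2 and build ASM294v2 are named in the submitters' processing notes; strand setting and annotation are not given in the sources used here. Columns were matched to samples by title, and 1 repeated identifier with 0 counts was dropped. Names came from RefSeq ASM294v3 (6833 identifiers by locus tag, 13 by synonym, 140 unmatched); as its build differs, no coordinates or sequences are given.

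Of 6986 genes, 6189 passed edgeR's filterByExpr (version 4.0.16, minimum count 10), the 19 among them. The 12 libraries were fitted together in a negative binomial model with TMM scaling and tested by glmQLFTest with Benjamini-Hochberg adjustment over all genes and a threshold of 0.05 (R 4.3.3). The model was tested on simulated data. Alternatives were other scalings and filters, DESeq2 1.42.0, fewer groups, a replicate block and omitted libraries. The 19 genes, the lists and the tests were chosen with earlier results of these data known. The naming rule took all 19 genes, those near the limits, those left out, the mutated genes and the lists; paralogues and partners were added after values were seen. The promoter motif search that was planned needed promoter sequences of the authors' build and was not run.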

Additional observations from a re-analysis of the deposited data

Results flagged for a closer look

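The change that comes with ssu72-C13S differed between backgrounds for 16 of the 19 genes: the triple mutant minus asp1-H397A was set against ssu72-C13S minus WT in one model (departure from additivity, log2), where 20.1% of all genes tested had a positive and 21.8% a negative departure past the threshold. It was positive for 13 genes: SPBCPT2R1.04c at 3.81, oga1 at 1.55, ymc1 at 1.53, anc1 at 1.44, tef101 at 1.41, rps001 at 1.29, cao2 at 1.28, rpl1602 at 1.25, SPBP8B7.26 at 1.08, SPAC29A4.02c at 0.96, bpb1 at 0.88, SPAPB1A10.13 at 0.67 and the4 at 0.36. It was negative for 3 transporter genes, SPCC794.04c at −2.21, isp4 at −1.48 and sst1 at −0.90. Adjusted p-values by edgeR's quasi-likelihood test ran from 2.78e-07 for oga1 to 0.00289 for the4. The value for SPBCPT2R1.04c rests on 4, 5 and 4 counts in ssu72-C13S. For vtc2, vtc4 and new25 the departure did not pass the threshold, at log2 −0.17 (SE 0.0911, adjusted p 0.153), log2 −0.03 (SE 0.115, adjusted p 0.845) and log2 −0.20 (SE 0.254, adjusted p 0.548). The departure contains any effect of the aps1 deletion and is computed with the libraries that chose the genes.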

How the results depend on the processing

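Under RLE scaling, both other filters, DESeq2 and the replicate block, the counts of the 19 genes called were those reported (14 and 2 against WT, 8 and 8 against asp1-H397A, 17 and 1 against ssu72-C13S, 13 and 3 for the departure). Library totals gave 11 genes higher and 4 lower than WT, 7 higher than asp1-H397A, 16 higher and 2 lower than ssu72-C13S and 4 negative departures, and upper-quartile scaling 13 higher than WT, 9 higher than asp1-H397A and 2 lower than ssu72-C13S. Fitting only the groups compared left 3 genes above asp1-H397A. Leaving out 1 library gave 12 to 14 genes higher than WT, 3 to 9 higher and 7 to 8 lower than asp1-H397A, 13 higher and 3 to 4 lower for the departure, and no other count moved. The rule found 53 genes on TMM-scaled CPM and 58 on that scale without asp1-H397A replicate 3 and triple mutant replicate 1 (chosen after seeing the data), 17 to 22 under the other definitions and 18 to 24 leaving out 1 library. The count past the midpoint, which WT passes for 16 of the 19, was 12 to 14. Deviations of same-numbered libraries had correlations from −0.72 to 0.62. With 3 libraries per genotype, these cannot settle whether the numbers pair the libraries. All 3 libraries correlated best with their own number for ssu72-C13S with asp1-H397A, 2 for WT with the triple mutant, 1 each for asp1-H397A with WT and with the triple mutant, and 0 for the other pairs. The block moved no count. Of 1577 single-gene values, 1528 kept their side and direction, 26 lost and 9 gained the threshold, and 14 changed sign. Sign changes were new25 against WT (log2 0.014 under RLE and DESeq2, −0.11 to 0.10 leaving out 1 library), the4 against WT (−0.044 under upper-quartile scaling, −0.28 under library totals), anc1 against asp1-H397A (−0.040 under library totals, −0.048 to 0.15 leaving out 1 library) and the departure of vtc4 (0.022 under upper-quartile scaling, −0.11 to 0.017 leaving out 1 library). The departure could not be fitted with only the groups compared. The cause of these changes was not tested. Depth limits SPBCPT2R1.04c in ssu72-C13S.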

Other observations

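On TMM-scaled CPM the same limits were met by 34 genes beyond the 19. Among them, picked after the values were seen, are pho8 (an alkaline phosphatase), spx2 (an SPX domain protein), nrf1, SPBC1703.13c (annotated as an inorganic phosphate transporter), the NADH dehydrogenase genes ndi1 and nde1, and cyt1 (cytochrome c1). The 34 also include tef103, the ribosomal protein genes rps2 and rps1002, cpc2 (annotated as 40S ribosomal protein RACK1) and the ribosomal RNA gene SPRRNA.02. In the triple mutant 4 of the 34 were higher than in asp1-H397A (15.7% of all genes were) and 18 lower (21.1%). The choice of genes high in asp1-H397A favours lower values in this comparison. Against WT 20 were higher (26.2%) and 2 lower (25.7%). Against ssu72-C13S 33 were higher (28.8%) and 1 lower (27.5%), a comparison in which the choice of genes low in ssu72-C13S favours higher values. For 29 of the 34 the triple mutant was nearer to asp1-H397A than to ssu72-C13S, and for 28 WT was, so the former count says nothing of resemblance. The lowest place was that of pfl7, which lay below ssu72-C13S in the triple mutant, at a position of −1.38 where 0 is the ssu72-C13S and 1 the asp1-H397A level.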
